A study of Mus musculus with 11 samples.

Results

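The genes of oxidative phosphorylation were examined in mice in which Dicer, the RNase that cuts miRNA precursors, was removed by a Camk2a-Cre transgene. A gene was taken as a member if it was protein-coding and its symbol belonged to the Nduf, Uqcr, Sdh, Cox4 to Cox8 or Atp5 families, or if it was 1 of the 13 protein-coding genes of the mitochondrial genome. These rules gave 97 members among 39017 genes with counts, 84 encoded in the nucleus and 13 in the mitochondrion. The rule reads gene type, symbol and position. Complex I had 37 nuclear and 7 mitochondrial members, complex II 4 nuclear members, complex III 8 and 1, complex IV 18 and 3, and complex V (ATP synthase) 17 and 2.

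Polyadenylated RNA was sequenced from neocortex and from the CA1 field of the hippocampus, in animals 13 to 14 weeks old. The knockout (KO) animals were Camk2a-Cre;Dicer flox/flox, and the labels call the other animals controls without giving their genotype. The neocortex gave 3 control libraries (D5129, D5134, D5135) and 3 KO libraries (D5130, D5132, D5133), all from males. CA1 gave 3 controls, the males D5134 and D5135 and the female D5138, and 2 libraries of KO males, D5130 and D5133. The 11 libraries came from 7 animals, 4 of which gave both tissues. Camk2a-Cre acts in excitatory neurons of the forebrain, so each library also held RNA of interneurons, glia and vessels, in which Dicer was not the target of the transgene.

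Oxidative phosphorylation passes electrons from NADH (complex I) and succinate (complex II) through complexes III and IV to oxygen, and the proton gradient that this builds drives ATP synthase. Complexes I, III, IV and V are assembled from subunits of both genomes, while all subunits of complex II are nuclear. The mitochondrial genes are transcribed as long precursors from both strands of a circular genome, the heavy-strand precursor carrying all of the messenger RNAs but mt-Nd6. Neurons depend on this pathway for most of their ATP, and miR-338-3p and miR-181c-5p have been reported to act on the messages of Cox4i1 and mt-Co1, respectively.

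A first question was which of the 13 mitochondrial genes the counts could measure. They split into a set of 7 with 2570 to 1124134 reads in every library and a set of 6 with 0 to 79. The 6 were mt-Co2, mt-Atp8, mt-Atp6, mt-Co3, mt-Nd3 and mt-Nd4l, which lie side by side from position 7013 to 10173 of the mitochondrial genome (GRCm38, 3161 bases). A stretch of chromosome 1 of 3159 bases, from 24612407 to 24615565, carries on its minus strand the annotated pseudogenes Gm28661, Gm10925, Gm28437, Gm28438 and Gm10222. In these, mt-Co2, mt-Atp6, mt-Co3 and mt-Nd4l were matched without a mismatch over 681, 678, 783 and 294 bases. The copy of mt-Nd3 differed from the mitochondrial gene by 1 base in 345, the substitution T3C, counted from the first base of the gene. The first 29 bases of both are shown because they hold the only base that separates the pair, which is in capitals:
mt-Nd3: atTaacctgtacactgttatcttcattaa
Gm28438: atCaacctgtacactgttatcttcattaa

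Of the stretches of 50 bases in these 5 genes, 98% to 100% occurred in an annotated transcript of another gene. The sixth, mt-Atp8, shared 0%, and it lies between mt-Co2 and mt-Atp6, where the chromosome 1 stretch has no annotated pseudogene. Among the 7 well-counted genes the share was 62.2% for mt-Nd4, 51.1% for mt-Co1, 8.19% for mt-Nd2 and 7.61% for mt-Nd5, and 0% for mt-Nd1, mt-Nd6 and mt-Cytb. How reads with more than 1 match were counted was not given in the sources used here, and its part in the low counts was not tested. The fold changes of the 6 low genes rest on at most 79 reads a library. They are kept apart below, except in counts of all members, in sums, and in mitochondrial medians under alternative processing.

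**Figure D1:**
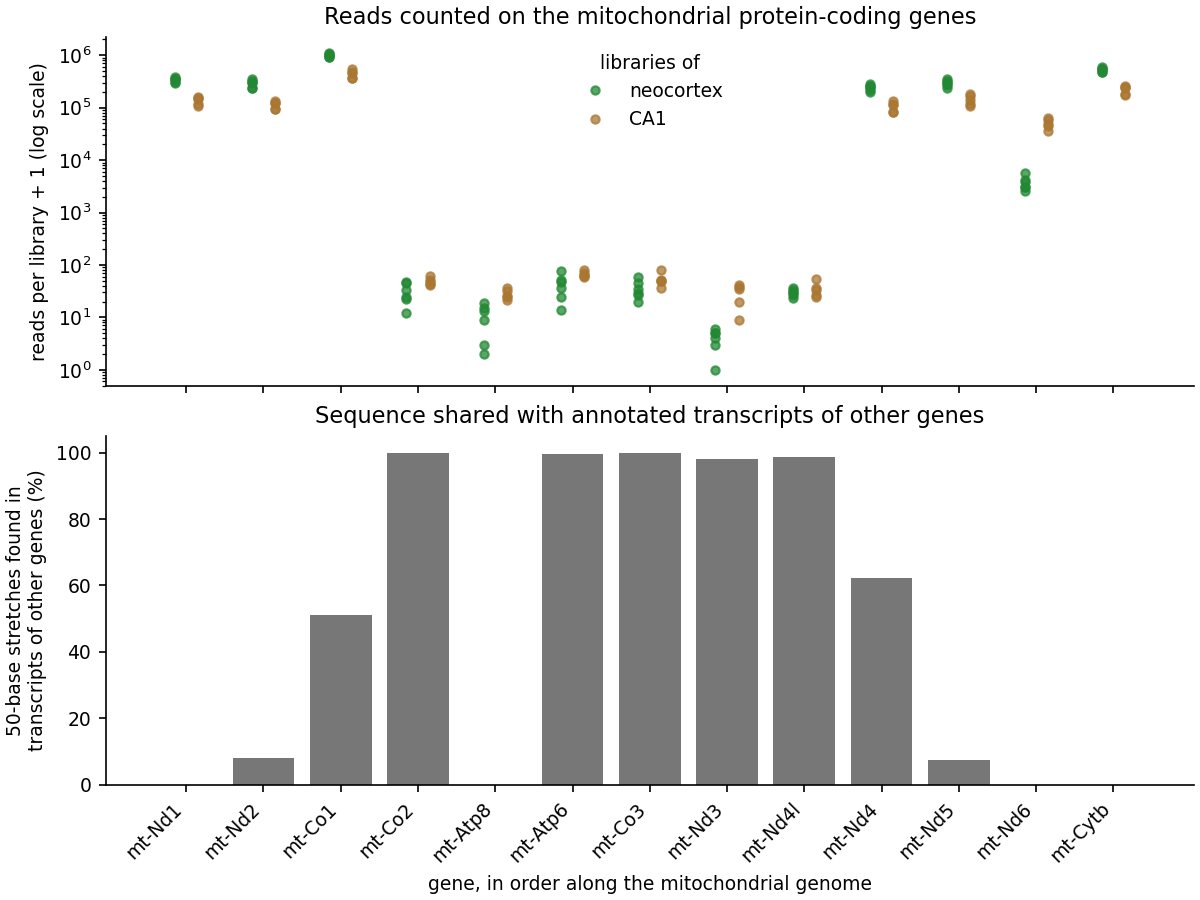
Upper panel: reads plus 1 per library (log axis) for the 13 mitochondrial protein-coding genes in map order, 1 point per library. Lower panel: the percentage of each gene's stretches of 50 bases that occur in annotated transcripts of other genes. The 6 neighbours from mt-Co2 to mt-Nd4l had 0 to 79 reads and the other 7 genes at least 2570.

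The depth was 43144097 to 58329441 gene reads in the neocortex libraries and 24806581 to 35684618 in those of CA1. The nuclear members took 0.985% to 1.14% of neocortex reads and 0.883% to 0.937% of CA1 reads, and the mitochondrial members 5.12% to 5.57% and 3.8% to 4.14%. The targeted Dicer exon was not analysed here, since counts cover whole genes. Among marker lists, edgeR called 2 of 8 excitatory neuron genes lower in the KO in each tissue. Of all genes tested, it called 1.2% lower and 1.51% higher in the neocortex, and 1.41% and 2.47% in CA1. In the neocortex 1 excitatory neuron gene went the other way, higher at an unadjusted p below 0.05, and DESeq2 called 1 higher. Of 10 microglia genes, 4 were higher in the neocortex and 6 in CA1. In the neocortex 4 of the 10 microglia genes lay below 0. Of these, 1 was lower at an unadjusted p below 0.05, and DESeq2 called 1 lower. In CA1, 2 of 8 astrocyte genes and 1 of 8 endothelium genes were higher and all 8 oligodendrocyte genes were lower. Both interneuron counts and the neocortex counts of astrocyte, oligodendrocyte, endothelium and meninges genes were 0 in edgeR. At an unadjusted p below 0.05 those were 3 and 1 interneuron genes and 3 astrocyte genes higher, 1 oligodendrocyte and 1 endothelium gene lower and 0 meninges genes, and DESeq2 called 1 of them, an astrocyte gene. In CA1 the meninges list summed to 265 to 375 CPM (reads scaled to the size of the library) in the controls and 561 to 943 CPM in the KO, with 3 of 8 genes higher. The blood list had 0 of 5 genes called in either tissue by edgeR or DESeq2, and 0 at an unadjusted p below 0.05. Of all genes, 8.94% were higher and 9.02% lower at that unadjusted p in the neocortex, and 9.51% and 7.78% in CA1. In bulk tissue, fewer cells of a type and less RNA per cell cannot be told apart, and the part of these shifts in the results below was not tested.

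Per kilobase of the main transcript, the nuclear members covered a wide range of levels. In the neocortex controls their median was 101 CPM per kb, and the most abundant were Atp5b, the catalytic β subunit of ATP synthase, at 653 CPM per kb, and Cox8a, a small structural subunit of complex IV, at 619 CPM per kb. In the CA1 controls the median was 79.7, with Atp5b at 612 and Cox8a at 478 CPM per kb. Among the 7 well-counted mitochondrial genes the median was 5225 CPM per kb in the neocortex and 3597 in CA1, led by mt-Co1, the catalytic subunit of complex IV, at 13057 and 9457. The levels of mt-Co1 and mt-Nd4, which share 51.1% and 62.2% of their stretches, are uncertain to the extent that shared reads were dropped or split. mt-Nd6 stood at 136 CPM per kb in the neocortex and at 3367 in CA1, whose libraries kept no strand. In complex II, Sdha, its flavoprotein, had 136 and 148 CPM per kb and Sdhc, a membrane anchor, 28.1 and 24.1.

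The isoform pairs showed which form each tissue carried. In the control libraries of the neocortex and CA1 respectively, Cox4i1 stood at 598 and 454 CPM per kb and Cox4i2, an isoform known from lung, at 2.07 and 1.19. Cox6a1 stood at 486 and 417 CPM per kb and Cox6a2, the form of heart and skeletal muscle, at 9.83 and 4.94. Cox7a2 stood at 239 and 156 CPM per kb and Cox7a1, another muscle form, at 2.48 and 2.6. In all of these pairs the low form was below the other by far more than the spread of libraries.

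Further pairs had the same shape. Cox6b1 stood at 333 and 255 CPM per kb and the testis form Cox6b2 at 3.27 and 4.08. Cox7b stood at 137 and 93.6 CPM per kb and Cox7b2 at 0.957 and 0.953. Ndufa4, counted here with complex I by its symbol and now assigned to complex IV, stood at 325 and 286 CPM per kb and its relative Ndufa4l2 at 2.37 and 1.78. Cox8b was at 0.848 and 0.484 CPM per kb, and Cox8c, a testis form, had 0 reads in all 11 libraries.

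The 3 genes of the membrane ring of ATP synthase were unequal: Atp5g3 stood at 343 and 298 CPM per kb, Atp5g1 at 11 and 12.5, and Atp5g2 at 0.633 and 1.21. The Atp5g1 transcript used for its length has a 3′ UTR of 4252 bases, so its level per kilobase depends on that choice. Atp5g2 shares 87.4% of its stretches of 50 bases with other transcripts, chiefly of Gm10175. Sharing of 50% or more was also found for Atp5l (84.8%), Ndufa12 (53.8%) and Cox7c (53.0%), and 25 other nuclear members shared 10% to 50%. The levels of these genes are uncertain to the extent that shared reads were dropped or split, whereas 38 nuclear members shared none.

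In the neocortex, the nuclear members lay slightly below control in the KO, while the well-counted mitochondrial members did not. Of 95 members tested, 0 passed an adjusted p of 0.05 in edgeR's quasi-likelihood test, against 2.71% of all 16971 genes tested (1.51% higher and 1.2% lower). At an unadjusted p below 0.05, 34 of 83 nuclear members were lower (9.02% of all genes) and 0 were higher (8.94% of all genes). DESeq2, run with no filter on low counts, called 7 members lower: Ndufa1, Ndufa8, Ndufb6 and Ndufb8 of complex I, Cox6a1 of complex IV, and Atp5e and Atp5mpl of ATP synthase. It called 3.25% of all genes with an adjusted p lower. The same 7 were called lower by edgeR with no filter (1.55% of all genes) and by DESeq2 on the genes that edgeR tested (3.52%). In simulated counts of the same 16971 genes, edgeR recovered 36% of changes of 0.3 on the log2 scale and 98% of changes of 1. The nuclear members' median of -0.134 was smaller in size than either, and changes of that size were not simulated. The excitatory neuron list, whose cells the transgene targets, summed to 5669 to 5744 CPM in the neocortex controls and 4929 to 5044 CPM in the KO, and the microglia list to 421 to 451 and 454 to 498 CPM. Their part in the result was not tested.

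The median log2 fold change of the 83 nuclear members tested was -0.13 (quartiles -0.18 and -0.066), beside 0.002 over all genes. Of the 83, 73 were below 0 (49.4% of all genes), whereas with scaling by the spike-in RNAs 0 were below 0, the median of all genes then being 1.06 and that of the nuclear members 0.88. Under that scaling 77 of the 83 still lay below the median of all genes. The spike-in RNAs took 0.686%, 0.189% and 0.445% of reads in controls D5129, D5134 and D5135. They took 0.268%, 0.169% and 0.113% in KO D5130, D5132 and D5133, so the scaling rests on shares that varied widely within each genotype. In 32 of the 83 every KO library was below every control library (12.4% of all genes), and in 0 every KO library was above (11.6%). The median was -0.168 without control D5135 and -0.074 without control D5134. It was -0.082 within spike-in set 1 (D5129, D5130, D5132) and -0.19 within set 2 (D5133, D5134, D5135), sets of libraries that differ in the composition of their spike-in reads.

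**Figure D2:**
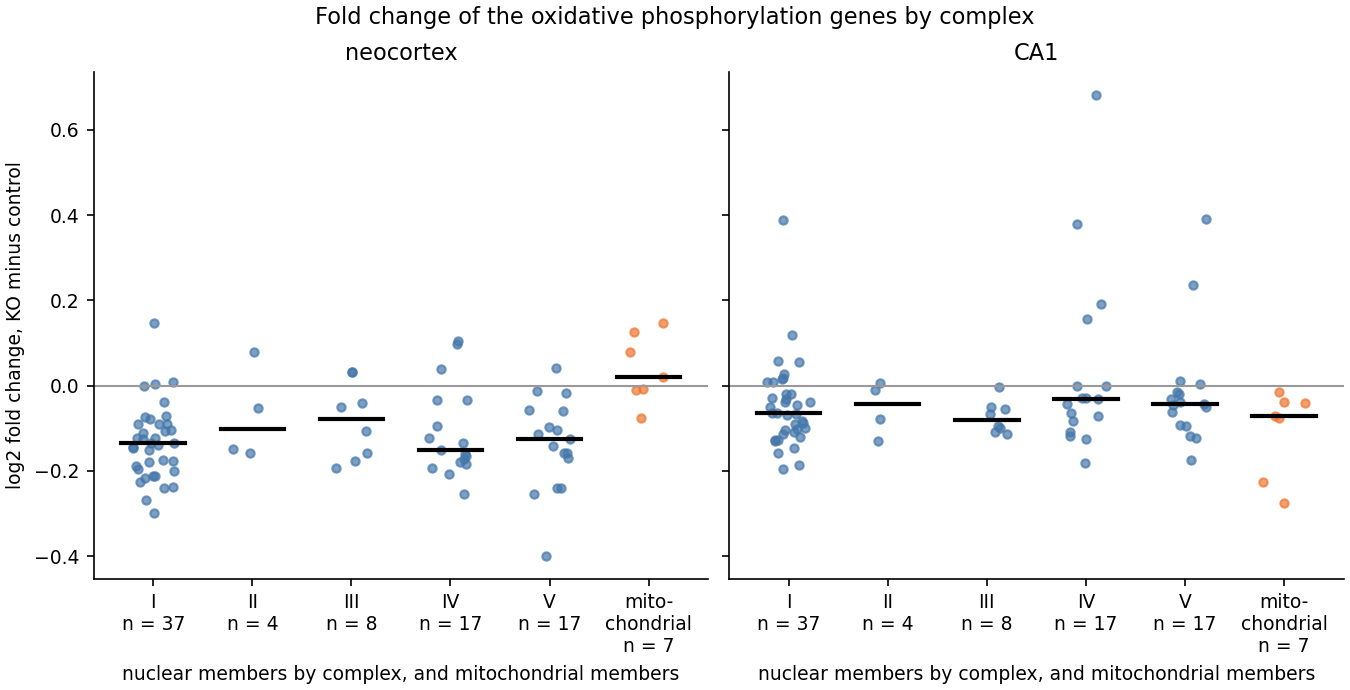
Log2 fold change (KO minus control, y axis) of each nuclear member tested, by complex, and of the 7 well-counted mitochondrial members, in the neocortex (left) and CA1 (right). Points are genes and the black line is the median of each column. In the neocortex the 5 nuclear medians lay between -0.15 and -0.079 and the mitochondrial one at 0.021.

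Complex I, the largest, had a median of -0.135, with 34 of its 37 nuclear genes below 0 and 17 lower at an unadjusted p below 0.05. Its accessory subunits, which surround the catalytic part, had a median of -0.15 over 30 genes, and the nuclear core subunits -0.105 over 7. The accessory subunit Ndufa1 stood at 51.4, 59.0 and 50 CPM in the controls (D5129, D5134, D5135 in this order throughout) and at 43.3, 45.6 and 41.5 CPM in the KO (D5130, D5132, D5133). All KO libraries lay below all controls, and D5134 was the highest. The log2 difference was -0.298 (SE 0.073, edgeR adjusted p = 0.0507), which did not pass.

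Ndufa8, another accessory subunit, stood at 88.3, 104 and 88.1 CPM in the controls and 77.4, 83.1 and 72.8 CPM in the KO. Its groups did not overlap, and its log2 difference was -0.267 (SE 0.075, edgeR adjusted p = 0.0855). The NADH-binding core subunit Ndufv1 stood at 165, 191 and 170 CPM in the controls and 161, 159 and 157 CPM in the KO, a log2 difference of -0.138 (SE 0.059, edgeR adjusted p = 0.24). The core subunit Ndufs1, which carries iron-sulfur clusters, had overlapping groups, with 147, 154 and 145 CPM in the controls and 150, 148 and 149 CPM in the KO. The highest fold change of the complex belonged to Ndufs5 (0.148, SE 0.265), a gene at 0.987 to 2.11 CPM that shares 31.1% of its stretches with the pseudogene BC002163.

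Complex II had a median of -0.101 over its 4 genes, which did not move as 1. Sdha, which oxidises succinate, stood at 387, 415 and 382 CPM in the controls and 411, 418 and 422 CPM in the KO. The groups overlapped, and the log2 difference was 0.080 (SE 0.049, edgeR adjusted p = 0.438). Sdhb, the iron-sulfur subunit that takes the electrons from it, stood at 122, 139 and 126 CPM in the controls and 121, 117 and 109 CPM in the KO. Its groups were apart, at a log2 difference of -0.159 (SE 0.061, edgeR adjusted p = 0.19).

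Complex III had the nuclear median nearest to 0, at -0.079. The lowest of its genes, the small subunit Uqcrq, stood at 71.5, 77.0 and 71.6 CPM in the controls and 63.7, 67.1 and 61.6 CPM in the KO, with no overlap and a log2 difference of -0.194 (SE 0.059, edgeR adjusted p = 0.107). The Rieske protein Uqcrfs1 was at 102, 112 and 106 CPM in the controls and 107, 105 and 113 CPM in the KO, and the core protein Uqcrc2 at 196, 213 and 198 and at 211, 199 and 210 CPM. Both had overlapping groups and a log2 fold change of 0.031. The other core protein, Uqcrc1, had groups apart, with 229, 249 and 232 CPM in the controls and 227, 220 and 211 CPM in the KO (log2 fold change -0.107, SE 0.053, edgeR adjusted p = 0.316).

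Complex IV had a nuclear median of -0.15. Cox6a1, a regulatory subunit, stood at 277, 303 and 253 CPM in the controls and 230, 234 and 235 CPM in the KO. The 3 KO libraries were within 5 CPM of each other and below every control, and the log2 difference was -0.253 (SE 0.062, edgeR adjusted p = 0.0507). Cox4i1, the subunit that meets the catalytic core, stood at 443, 509 and 420 CPM in the controls and 401, 411 and 406 CPM in the KO, again without overlap (log2 fold change -0.172, SE 0.064, edgeR adjusted p = 0.182). Cox8a, the most abundant per kilobase of the complex, had 354, 367 and 301 CPM in the controls and 311, 299 and 303 CPM in the KO. Here control D5135 lay among the KO values, and without it the gene was called lower (log2 fold change -0.242, edgeR adjusted p = 0.0318). The minor isoforms Cox4i2, Cox6b2, Cox7a1, Cox7b2 and Cox8b, all under 2 CPM, had overlapping groups and SEs of 0.22 to 0.371.

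ATP synthase had a median of -0.124. Atp5b stood at 1220, 1310 and 1220 CPM in the controls and 1282, 1311 and 1268 CPM in the KO, and Atp5a1 at 873, 953 and 887 and at 906, 890 and 896 CPM. The groups overlapped for both, at log2 fold changes of 0.042 (SE 0.048) and -0.012 (SE 0.048). The small subunit Atp5e stood at 78.7, 88.5 and 73.4 CPM in the controls and 67.2, 72.3 and 62.2 CPM in the KO, with no overlap and a log2 difference of -0.254 (SE 0.077, edgeR adjusted p = 0.106). The ring subunit Atp5g3 was at 244, 259 and 241 CPM in the controls and 227, 227 and 219 CPM in the KO (log2 fold change -0.141, SE 0.049, edgeR adjusted p = 0.15).

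Of the 7 well-counted mitochondrial genes, 3 were below 0 in the neocortex, and their median was 0.021. mt-Nd2, a membrane subunit of complex I, was the one gene with every KO library above every control, at 5550, 5671 and 5049 CPM in the controls and 5781, 6269 and 5982 CPM in the KO. Its log2 difference of 0.148 (SE 0.055, edgeR adjusted p = 0.175) did not pass. mt-Co1 had 19878, 21397 and 19247 CPM in the controls and 18625, 19617 and 19228 CPM in the KO, and mt-Cytb, the cytochrome of complex III, 10342, 11250 and 9929 and 10178, 10848 and 10323 CPM. The groups overlapped for both, at log2 fold changes of -0.075 (SE 0.051) and -0.008 (SE 0.054). mt-Nd1, mt-Nd4, mt-Nd5 and mt-Nd6 overlapped as well, at log2 fold changes of -0.011 to 0.127. Of the low set, mt-Nd3 was not tested and the other 5 ranged from -0.197 to 0.692, with SEs of 0.296 to 0.719.

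Summed over genes, the nuclear members came to 10503, 11535 and 10192 CPM in neocortex controls D5129, D5134 and D5135 and to 10099, 10260 and 9825 CPM in KO D5130, D5132 and D5133. The groups overlapped, with D5134 the highest of all. The mitochondrial members summed to 52886, 56254 and 50589 CPM in the controls and 51836, 54375 and 52955 CPM in the KO, which overlapped more widely. The ratio of the mitochondrial to the nuclear sum was 5.04, 4.88 and 4.96 in the controls and 5.13, 5.3 and 5.39 in the KO. Every KO ratio exceeded every control ratio, and the group means of 4.96 ± 0.0794 and 5.27 ± 0.13 (SD, n = 3 each) differed by 6.36%. As a sum over chosen genes it was given no test.

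By complex, the nuclear sums were apart for complex I, at 2987, 3308 and 2924 CPM in the controls and 2809, 2879 and 2684 CPM in the KO, a difference of -9.2%. They were also apart for complex IV, at 2119, 2337 and 1944 CPM against 1889, 1916 and 1873 CPM, a difference of -11.3%. The sums of complexes II, III and V overlapped, with differences of -0.408%, -4.49% and -2.88%. The genes with the most CPM in those sums were Sdha, Uqcrc1 and Uqcrc2, and Atp5a1 and Atp5b.

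**Figure D3:**
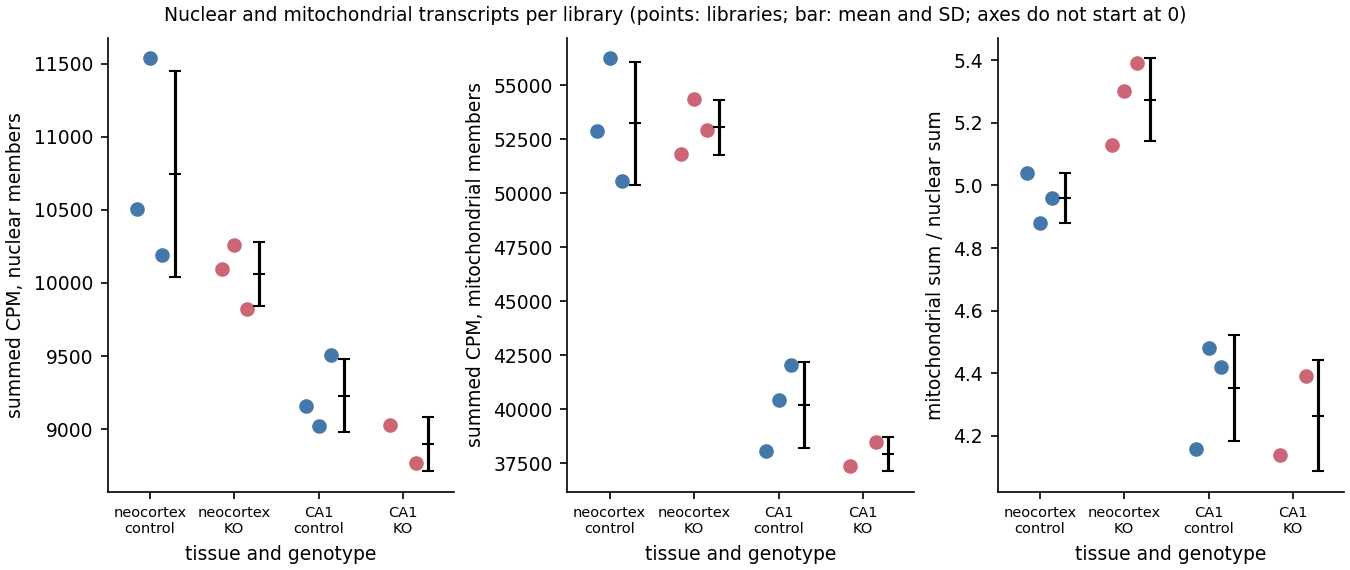
Summed CPM of the nuclear members (left) and of the mitochondrial members (middle) and their ratio (right) by tissue and genotype. Points are libraries and bars the mean and SD (n = 3, or 2 for the CA1 KO), on axes that do not start at 0. In the neocortex the KO ratios of 5.13 to 5.39 lay above the control ratios of 4.88 to 5.04.

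Transcript length moved with the neocortex result. Protein-coding genes outside the members with a main transcript of up to 1000 bases had a median log2 fold change of -0.088 (805 genes), and those over 4000 bases 0.055 (4755 genes). Most nuclear members are short: 52 of the 83 tested were in the class up to 1000 bases, where their median was -0.153. From 1000 to 2000 bases the medians were -0.117 for 24 members and -0.058 for 3075 other genes. From 2000 to 4000 bases they were -0.012 for 5 members and -0.005 for 6090 others, and over 4000 bases -0.139 for 2 members. In each class the members' median was below that of the other genes, and no test was made of the difference.

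**Figure D4:**
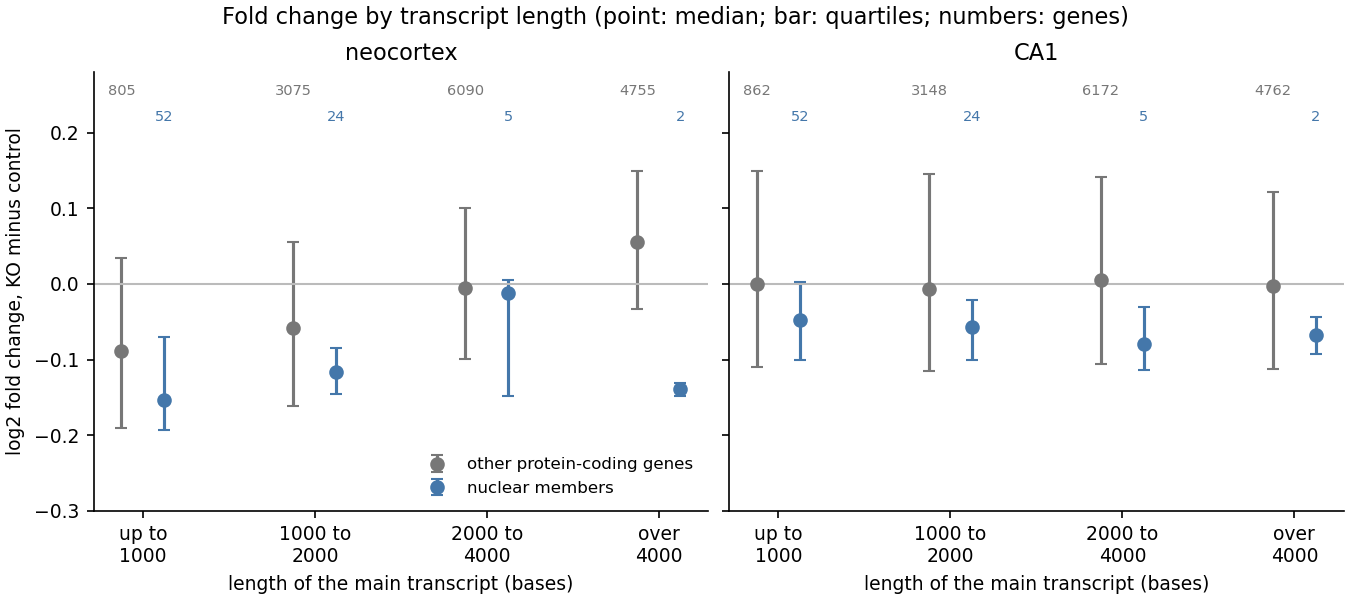
Median log2 fold change (KO minus control, y axis; bars are quartiles) of the nuclear members and of all other protein-coding genes by length of the main transcript, in the neocortex (left) and CA1 (right). The numbers above give the genes in each class. In the neocortex the other genes ran from -0.088 in the shortest class to 0.055 in the longest, and in CA1 they stayed between -0.007 and 0.005.

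In CA1, 1 member of 96 tested fell, mt-Nd6, a membrane subunit of complex I and the only messenger of the light-strand precursor. That compares with 3.89% of all 18274 genes called, 1.41% lower and 2.47% higher. Its level was 1705, 1736 and 1802 CPM in the control libraries (throughout in the order D5134, D5135, D5138) and 1447 and 1440 CPM in the KO (D5130, D5133). The KO values lay close together and well below the controls. The log2 difference was -0.276 (SE 0.050, edgeR adjusted p = 0.00714). Without the female control D5138 it was -0.253 with an edgeR adjusted p of 0.0789, and in 1 fit of all 11 libraries -0.28 with an edgeR adjusted p of 0.717. The oligodendrocyte list summed to 3579 to 4335 CPM in these controls and 2942 to 2959 CPM in the KO, the excitatory neuron list to 5271 to 5936 and 4717 to 5172 CPM, and the microglia list to 291 to 307 and 420 to 467 CPM. Their part in the CA1 results was not tested.

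The mt-Nd6 values of CA1 must be read with its library kit. mt-Nd6 lies on the minus strand at 13552 to 14070 of the mitochondrial genome, and its end overlaps that of mt-Nd5, at 11742 to 13565 on the plus strand. The CA1 kit did not keep strand, so reads of mt-Nd6 and of heavy-strand precursor RNA across the same bases cannot be told apart there. mt-Nd6 amounted to 33.3% to 38.7% of mt-Nd5 in CPM in CA1 and to 0.935% to 1.79% in the neocortex, whose kit kept strand. The 8 transfer RNAs of the light-strand precursor summed to 254 to 336 CPM in CA1 and 0.443 to 1.78 CPM in the neocortex, and the 14 of the heavy-strand precursor to 155 to 179 and 21.5 to 36.1 CPM. Kit and tissue cannot be told apart in this difference.

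mt-Nd5 itself stood at 4401, 5063 and 5171 CPM in the CA1 controls and 4022 and 4318 CPM in the KO. The groups were apart, at a log2 difference of -0.226 (SE 0.067, edgeR adjusted p = 0.0844), and it was called lower by DESeq2 with no filter (adjusted p = 0.0278), which called 2.66% of all genes lower. DESeq2 on the filtered genes (adjusted p = 0.0372, 2.64% of all genes) and edgeR with no filter (2.33%) called it too. The ratio of mt-Nd6 to mt-Nd5 was 38.7%, 34.3% and 34.8% in the controls and 36.0% and 33.3% in the KO, so the groups overlapped in this ratio. In the neocortex mt-Nd6 stood at 58.4, 98.7 and 54.2 CPM in the controls and 57.5, 77.0 and 95.7 CPM in the KO, and overlapped (log2 fold change 0.127, SE 0.334, edgeR adjusted p = 0.903).

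**Figure D5:**
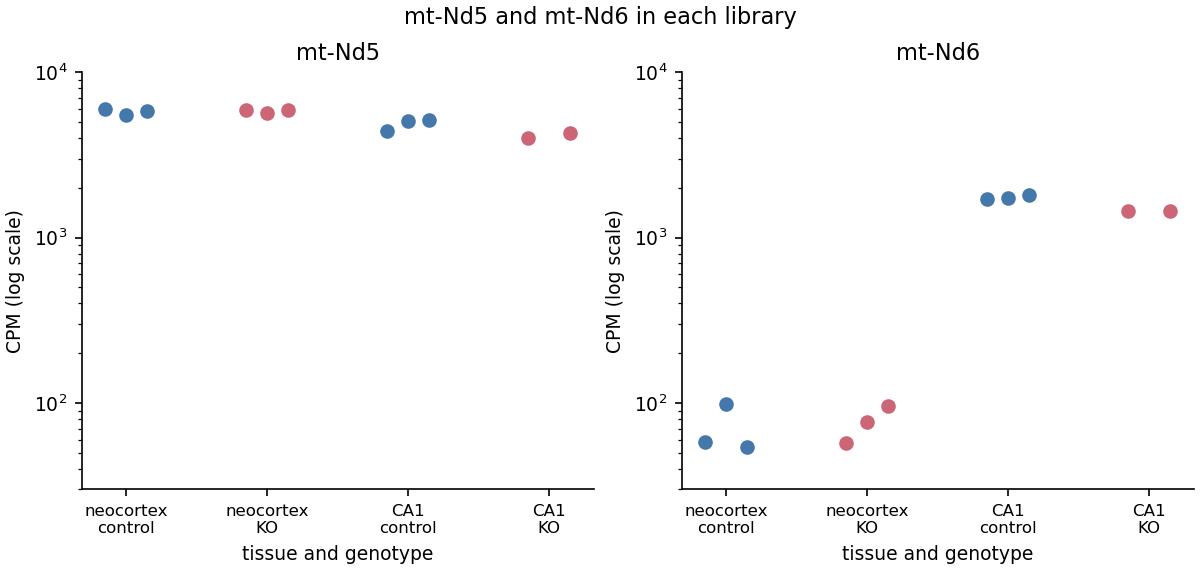
CPM (log axis) of mt-Nd5 (left) and mt-Nd6 (right) in each library by tissue and genotype. mt-Nd6 was at 54.2 to 98.7 CPM in the stranded neocortex libraries and at 1440 to 1802 CPM in the unstranded CA1 libraries, where the KO libraries lay below the controls.

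The other mitochondrial genes of CA1 did not pass. The 7 well-counted genes were all below 0, with a median of -0.070, and beside mt-Nd5 and mt-Nd6 only mt-Nd1 had groups apart, at 4427, 4543 and 4597 CPM in the controls and 4348 and 4240 CPM in the KO (log2 fold change -0.075, SE 0.048, edgeR adjusted p = 0.469). mt-Co1 had 14020, 14343 and 15470 CPM in the controls and 13429 and 14416 CPM in the KO, and mt-Nd2 3560, 3767 and 3873 and 3650 and 3736 CPM. Their groups overlapped, as did those of mt-Nd4 and mt-Cytb.

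Of the nuclear members of CA1, 0 of 83 were called by edgeR and 0 by DESeq2, and at an unadjusted p below 0.05, 4 were lower (7.78% of all genes) and 0 higher (9.51%). Their median log2 fold change was -0.050, beside 0.000 over all genes, and 63 of 83 were below 0 (50.1% of all genes). In 17 of the 83 the KO libraries lay below all controls (16.3% of all genes) and in 2 of the 83 above (17.4%). The count below was thus near the share of all genes, and the count above was well under it. The median was -0.026 without the female control D5138 and -0.094 without KO D5130. By complex the medians were -0.063, -0.044, -0.081, -0.031 and -0.042 for I to V. Simulated counts of the 18274 genes, with changed genes drawn as in the neocortex, gave edgeR a recovery of 18% for changes of 0.3 on the log2 scale. For changes of 1 it was 92%.

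The lowest nuclear fold change in CA1 was that of Ndufv2, a core subunit with an iron-sulfur cluster. It stood at 97.5, 96.2 and 101 CPM in the controls and 84.3 and 87.5 CPM in the KO, with no overlap (log2 fold change -0.195, SE 0.064, edgeR adjusted p = 0.117). Cox5a, a structural subunit of complex IV, was at 116, 115 and 112 CPM in the controls and 109 and 91.6 CPM in the KO, where D5133 was well below D5130 (log2 fold change -0.181, SE 0.076, edgeR adjusted p = 0.23). Sdhb was at 109, 109 and 107 CPM in the controls and 97.8 and 100 CPM in the KO, apart as in the neocortex (log2 fold change -0.13, SE 0.061, edgeR adjusted p = 0.295). The 2 genes nearest the threshold in the neocortex had smaller values here: Cox6a1, at 239, 237 and 239 CPM in the controls and 234 and 205 CPM in the KO, had a log2 difference of -0.117 (SE 0.063), and Ndufa1, at 35.4, 34.6 and 39.6 and 33.8 and 37.1 CPM, one of -0.046 (SE 0.089).

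At the other end, Atp5l had 6.7, 5.7 and 8.07 CPM in the CA1 controls and 6.08 and 12 CPM in the KO. Its log2 difference of 0.39 (SE 0.28) rests on KO D5133. Cox6b2 and Ndufa4l2, both at about 1 to 2 CPM, had log2 fold changes of 0.379 (SE 0.293) and 0.388 (SE 0.271). Uqcrb, Sdhd and Atp5b, the highest of complexes III and II and a catalytic subunit, had log2 fold changes of -0.003, 0.006 and 0.012.

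In CA1 the nuclear sums were 9158, 9025 and 9509 CPM in controls D5134, D5135 and D5138 and 9029 and 8769 CPM in KO D5130 and D5133. The mitochondrial sums were 38070, 40451 and 42043 CPM against 37375 and 38487 CPM. Both totals overlapped. The CA1 nuclear sums of complexes I, II and III were apart and lower in the KO, with differences of -5.07%, -2.27% and -5.45%. The gaps were narrow, the highest KO sums being 2502, 678 and 838 CPM and the lowest control sums 2511, 681 and 845 CPM. The sums of complexes IV and V overlapped, with differences of -4.69% and -1.75%. These sums were given no test. The ratio of mitochondrial to nuclear sums was 4.16, 4.48 and 4.42 in the controls and 4.14 and 4.39 in the KO, with overlap and a difference of -2.05% between means. The order of animals D5134 and D5135 in this ratio, 4.88 and 4.96 in the neocortex and 4.16 and 4.48 in CA1, was the same in both tissues, as was that of KO D5130 and D5133. Each order rests on only 2 animals and was not tested.

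Whether the KO effect differed between the tissues was tested directly in 1 fit of the 11 libraries. In edgeR 0 of 96 members passed, against 0.0935% of 19256 genes, and at an unadjusted p below 0.05, 2 were higher in CA1 (4.97% of all genes) and 1 lower (4.54%). Ndufa13 (0.274, SE 0.098, edgeR adjusted p = 0.36) and Ndufa1 (0.252, SE 0.116, edgeR adjusted p = 0.506), accessory subunits of complex I, were the 2, named here after their values were seen. The third was mt-Nd5 (-0.247, SE 0.089, edgeR adjusted p = 0.365). With the animal as a block 0 members passed as well, where 36 of all genes were called higher and 78 lower. The nuclear members' median difference, CA1 minus neocortex, was 0.067 without the block (20 of 83 below 0). With the block it was 0.131 (14 below 0), beside 0.007 and 0.010 over all genes. Without D5134 and without the block it was -0.001. No difference between the tissues was therefore detected in any single member. The medians were not tested, and those of -0.13 and -0.050 for the nuclear members are given side by side only.

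The pathways around the complexes were counted from lists. The mitochondrial ribosome, which translates the 13 mitochondrial messages, had 0 of 77 genes called by edgeR in either tissue, with medians of -0.116 in the neocortex (69 of 77 below 0) and -0.067 in CA1 (62 of 77). Complex I assembly factors had 0 of 16 called and medians of -0.102 and -0.119. Genes for maintenance and transcription of mitochondrial DNA had 0 of 12 called and medians of 0.058 and 0.062. Genes for stability and processing of mitochondrial messages had 0 of 15 called, at 0.000 and -0.028, and the tricarboxylic acid cycle 0 of 16, at -0.011 and -0.057. Nuclear regulators such as Ppargc1a and Gabpa had 0 of 9 called, at 0.125 and -0.031, and cytochrome c and c1 0 of 2, at -0.094 and -0.010. Where edgeR called 0 genes of these lists, DESeq2 called 4 of 77 ribosome genes lower in the neocortex (3.25% of all genes). It called 1 of 16 genes of the tricarboxylic acid cycle lower in CA1 (2.66%), and 0 in the rest. At an unadjusted p below 0.05, 19 of 77 ribosome genes were lower in the neocortex (9.02% of all genes) and 4 in CA1 (7.78%). Higher were 0 in both (8.94% and 9.51%), and each other list had at most 4 genes in a tissue.

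A few single genes of these lists were called. Atpaf1, which helps assemble the F1 part of ATP synthase, rose in the neocortex from 26.7 to 34.4 CPM (log2 fold change 0.362, SE 0.063, edgeR adjusted p = 0.0129), the 1 gene called of 32 assembly factors of complexes II to V (medians -0.113 and -0.032), and in CA1 its log2 difference was 0.234 (SE 0.086, edgeR adjusted p = 0.169). Trak2, an adaptor that links mitochondria to motor proteins, rose from 265 to 528 CPM in the neocortex (0.997, SE 0.076, edgeR adjusted p = 0.000409) and from 242 to 409 CPM in CA1 (0.756, SE 0.061, edgeR adjusted p = 1.73e-05). Tomm70a, an import receptor of the outer membrane, fell in CA1 from 221 to 189 CPM (-0.225, SE 0.057, edgeR adjusted p = 0.0417). These were the genes called of the 22 for dynamics, import and transport, whose medians were -0.029 and -0.060. Tpi1, a glycolytic enzyme, fell in the neocortex from 648 to 543 CPM (-0.256, SE 0.057, edgeR adjusted p = 0.0361), 1 of 16 glycolysis genes, whose medians were -0.119 and -0.033. The inhibitor of ATP synthase, Atpif1, did not pass, at 133 and 114 CPM in the neocortex (-0.227, SE 0.057, edgeR adjusted p = 0.0573), although DESeq2 called it lower. DESeq2 called 2 lower among the assembly factors of complexes II to V in the neocortex, besides 1 higher, and 4 lower among the glycolysis genes (3.25% of all genes lower). At an unadjusted p below 0.05, 7 and 6 genes of these lists were lower (9.02% of all genes). In CA1 DESeq2 called 2 genes of dynamics, import and transport lower, and 1 glycolysis gene higher and 1 lower (2.66% of all genes lower).

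Since Dicer makes miRNAs, the 3′ UTRs of the nuclear members were searched for matches to the seeds, bases 2 to 8, of 10 miRNAs of the brain, of which miR-181a-5p and miR-181c-5p share a seed. Other brain miRNAs, among them miR-124, were not searched. The members' 3′ UTRs were short, with a median of 154 bases in 84 genes against 973 bases in the 14532 protein-coding genes tested. A match to any of the seeds was found in 16 of 84 (19%), against 59.7% of those genes. The members with a match had a median log2 fold change of -0.139 in the neocortex and -0.056 in CA1, and those with none -0.126 and -0.050. The matches to the miRNAs reported for this pathway are shown, because the pairs can be read base by base. The miRNA seeds and the matching site letters are in capitals (miRNAs from RefSeq, GRCm38.p6, and transcripts from GENCODE M21):
miR-338-3p: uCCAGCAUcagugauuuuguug
Cox4i1 site: cactccctcggcATGCTGGaagctgcc
miR-181c-5p: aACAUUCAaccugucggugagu
Atp5l site: tgagttcttattTGAATGTtcttggac
Sdha site: tacttctcactgTGAATGTaactagtt

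Cox4i1 was the only nuclear member with a match to miR-338-3p, 45 bases after its stop codon, and its log2 fold change was -0.172 in the neocortex and -0.028 in CA1. The miR-181c-5p seed, which miR-181a-5p shares, matched in Atp5l and Sdha, 36 and 737 bases after the stop codon, at log2 fold changes of -0.018 and 0.080 in the neocortex and 0.39 and -0.009 in CA1. A match of letters is not a measured site, and none of these genes was called. The sequence of mt-Co1, the message reported for miR-181c-5p, was searched for both seeds and held no match.

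The promoters were searched for the letters GCATGCGC, the core that the factor NRF1 binds, on both strands from 250 bases before to 50 after the start site. They occurred in 10 of 68 nuclear members with a RefSeq promoter (14.7%) and in 3.05% of 27025 promoters. The GABPA core ACCGGAAGT occurred in 1 of 68 (1.47%) and in 1.21% of all. Members with the NRF1 letters had a median log2 fold change of -0.168 in the neocortex and those without -0.134. The 10 ranged from -0.399 (Atp5g2, at 0.282 to 0.515 CPM) to -0.018 (Atp5l), and the difference in medians was not tested. The letters are shown for the 2 such members that DESeq2 called lower in the neocortex, picked by that result (GRCm38.p6, motif in capitals, read on the strand of the gene). They begin at -160 from the start site in Cox6a1 and at -8 in Ndufa8:
Cox6a1: ggaacggggcGCATGCGCgctctcgctc
Ndufa8: cgctggagacGCATGCGCagatggtacc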

How the data were processed

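The authors deposited 1 table of unnormalized counts, with reads per Ensembl ID as integers and 92 spike-in (ERCC) rows beside 39017 genes. GRCm38 was the build, and GSNAP, FastQC, bedtools and SAMtools the tools, per the submitters' processing notes. The sources used here give neither the counting rule nor its strand setting. Per the labels' protocols, neocortex libraries were stranded and held ERCC RNAs and CA1 libraries were unstranded. Symbols, positions and transcripts came from GENCODE M21 by gene ID (37607 IDs, 96.4%, matched), with the main transcript of a gene being the one with the longest coding part.

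Each tissue had its own fit of KO against control in edgeR 4.0.16 under R 4.3.3 (TMM, filterByExpr, robust quasi-likelihood F-test, two-sided, Benjamini-Hochberg over all genes tested, threshold 0.05), and between tissues by an interaction over all libraries. CPM values use TMM-scaled library sizes, the SE is the absolute log2 fold change divided by the square root of F, and DESeq2 1.42.0, with no filter on low counts except where stated, was an alternative. Scripts were tested on simulated counts. P-values of the fits within a tissue measure the spread between these animals. Those of the fit of all 11 libraries, the interaction included, treat the libraries of 7 animals as independent, except with the animal as block.

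The members and the 21 gene lists were chosen with earlier results of these data known. Genes named are the 13 mitochondrial genes, members called, the extremes of each complex at a mean of at least 1 CPM, catalytic subunits, isoform pairs and up to 3 genes of each list. Ndufa8, Ndufa12, Ndufa13, Cox7c, Sdhc, Ndufb6, Ndufb8 and Atp5mpl were named after their values were seen. The labels give the same animal name to both tissues of 4 animals, which pairs those libraries, so the animal was a replicate block in an alternative fit. 1 gene that this rule takes is not reported here by name, and counts include it.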

Additional observations from a re-analysis of the deposited data

How the results depend on the processing

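The count of 0 neocortex members called lower became 7 with DESeq2 (run with no filter), 7 with DESeq2 on the filtered genes (added after seeing the data), 7 with edgeR with no filter and 2 in 1 fit of the 11 libraries, and the count of 1 in CA1 became 2, 2, 2 and 0. Leaving out 1 library gave 0 to 5 members called lower in the neocortex (5 without D5135: Atp5e, Cox6a1, Cox6b1, Cox8a, Ndufa1) and 0 to 2 in CA1. Leaving 1 out, the neocortex medians of complexes I to V ran from -0.169 to -0.085, -0.135 to -0.044, -0.118 to -0.018, -0.201 to -0.077 and -0.162 to -0.061, that of the nuclear members from -0.168 to -0.074 and that of the mitochondrial members, 0.050 with all libraries, from -0.039 (without D5135) to 0.092. In CA1 they ran from -0.099 to -0.028, -0.098 to -0.020, -0.134 to -0.041, -0.102 to 0.008 and -0.087 to -0.001, those of complexes II and III lowest without KO D5130 and that of complex IV above 0 without D5138. ERCC scaling raised the neocortex medians to 0.88 (nuclear), 1.096 (mitochondrial) and 0.861, 0.913, 0.923, 0.856 and 0.878 (complexes I to V), against 1.06 for all genes, with 4 genes called. Spike-in sets, defined from the composition of the ERCC reads after seeing the data, gave a mitochondrial median of -0.050 in set 1 and 0.126 in set 2, a complex II median of 0.010 in set 1 and a complex III median of -0.153 in set 2. Set 1 has 1 control and set 2 has 1 KO library. The mitochondrial median of 0.050 was over 12 members tested, 5 of them of the low set. Its alternatives were not restricted to the well-counted genes either. The 7 well-counted genes alone had a median of 0.021 with all libraries. The log2 ratio of mitochondrial to nuclear sums, 0.089 in the neocortex, was 0.176 without the 3 members with the most reads. With the animal as a replicate block, 0 members were called in the interaction, higher or lower. Of values for the 51 members taken by the naming rule, 20 passed the threshold under an alternative where they had not, 2 (both mt-Nd6 in CA1) no longer passed, and 1797 kept their side. The cause of these changes was not tested. In simulated counts edgeR missed most changes of 0.3 on the log2 scale, in genes drawn from all those with a mean of at least 1 CPM.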

Other observations

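Control D5134 stood at the top of the nuclear sums in the neocortex, at 11535 CPM against 10503 and 10192 in the other controls, and also had the most mt-Nd6, at 98.7 CPM. Its CA1 library had 9158 CPM of nuclear members, between the other CA1 controls at 9025 and 9509.

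Among the nuclear members with 50% or more of their sequence in other transcripts, 2 of 4 were under 10 CPM in the controls of both tissues, against 7 of 38 with none, 1 of 17 with under 10% and 1 of 25 from 10% to 50%. The median levels in the neocortex controls were 12.3, 78.7, 106 and 95.6 CPM in that order.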
